A study of Calluna vulgaris with 2 samples.

Results

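Genes that build the plant surface were compared between a heather that never opens its buds and its open-flowering offspring. The 10 contigs described here are annotated as an ethylene-responsive transcription factor win1-like, an acyl carrier protein, 2 3-ketoacyl-synthases, 2 glycerol-3-phosphate acyltransferases, 3 GDSL esterase lipases and a lipid transfer protein. They were taken by contig number from the 12058 contigs with read counts. The study lists all 10 as differentially expressed between the same pair of libraries, so the contigs were selected on their read numbers in bud against wt, and these values are given as a description. Calls by a test of the reads are counted only to set them beside the share of all contigs, and nothing rests on them.

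The bud library came from young flowers of ‘Maria’, a bud blooming cultivar of Calluna vulgaris of the diplocalyx type, which forms no stamens and has a second whorl of sepals in place of petals. The wt library came from young flowers of the genotype F1, the wild type flowering progeny of ‘Maria’ and the wild type cultivar ‘Boskoop’. Whole flowers with bracts were used, and only those of wt held petals and stamens. F1 shares its mother's genome in part, so flower type and the remaining genetic background cannot be told apart. There was 1 library per flower type and no replicate, so that no difference has a replicate check and all intervals are exact 95% intervals for counting error only. In flowers of different organ make-up, fewer cells of a type and less RNA per cell cannot be told apart.

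The cDNA was primed at the poly(A) tail, amplified in 17 PCR cycles and cut to a size of 500 to 650 bp, which gives reads from the 3’ ends of transcripts. The counts summed to 193454 reads for bud and 157245 for wt, and shares are given as reads per 10000 reads of a library. In ratios a count of 0 was replaced by 3 reads, a share of 0.155 per 10000 in bud and 0.191 in wt. The exact upper limit of the share at 0 reads was 0.1907 in bud and 0.2346 in wt. Reads were not divided by contig length, which the table does not hold, so shares of different contigs are not compared as levels of expression. The order of the count columns rests on the study's table of candidate genes, in which all 9 contigs have the same bud and wt reads as here. The study's list of differentially expressed contigs heads the libraries the other way round. If that heading applied to the columns counted here, every direction given below would turn. The study's text gives 20 reads of CvPI to wt and 0 to bud, which is the order used here. Whether the heading of the list conflicts with this order was not settled. The annotations rest on the same list, which gives a name to 195 contig numbers. With its first read column taken as bud, the reads printed in that list equal those counted here under the same contig number for only 2 of the 195. The opposite order of its columns was not compared, so this low match cannot show whether names and contig numbers belong together. For 2 of the 10 contigs, contig00523 and contig01282, the table of candidate genes names the same protein, and for the other 8 no second source gave a name, so that their names, and what is said below of each protein, are uncertain. The contig numbers of the list run upwards in 2 sequences. Of the 114 contigs of the first, 109 had a higher share in bud here, and of the 81 of the second, 80 had a higher share in wt. The surface lipid contigs followed this order, with 6 in the first sequence, all higher in bud, and 4 in the second, all higher in wt.

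The aerial surface of a plant is covered by the cuticle, a layer of the polyester cutin that is filled and coated with wax. Its lipids are made in the epidermis: fatty acids are built on acyl carrier protein in the plastid, then either lengthened to very long chains for wax or oxidised and joined to glycerol as precursors of cutin. The precursors leave the cell, where esterases of the GDSL family link them, and small lipid transfer proteins are secreted into the same wall. In flowers the cuticle shapes the surface of petals and sepals and keeps organs from fusing, and related lipids coat the pollen.

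The 10 contigs did not go in 1 direction. The share was higher in bud for 6 of them, the win1-like factor, the acyl carrier protein, 3-ketoacyl-synthase 6 (contig01282), glycerol-3-phosphate acyltransferase 6 (contig00523) and the GDSL contigs contig00147 and contig00151. It was higher in wt for the other 4, the lipid transfer protein, the second 3-ketoacyl-synthase (contig01283), the acyltransferase 8-like contig (contig03444) and the GDSL contig contig00146. Differences of at least 2-fold were seen in favour of bud for 5 contigs and in favour of wt for 3. Of all 11900 contigs with more than 2 reads, 21.0% were at least 2-fold higher in bud and 22.3% in wt, and of the 1898 contigs with at least the 37 reads of the smallest of the 10, 18.9% and 11.3%. By the exact Audic-Claverie test of the reads, the method of the study, which compares the libraries and not the flower types, calls at a Bonferroni-adjusted p under 0.01 were made for 5 of the 10 in favour of bud and for 3 in favour of wt, beside 1.41% and 1.48% of all contigs. Since these contigs were listed for this very difference, nothing is read from these counts. The contigs without a call were contig00523 and contig00146. The median log2 ratio of bud over wt was 0.86 for the 10 contigs, 0.02 for all contigs tested and 0.26 for the 1898 contigs. The 10 were selected on this ratio and lie on both sides of equal shares, so nothing is read from their median either.

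**Figure D1:**
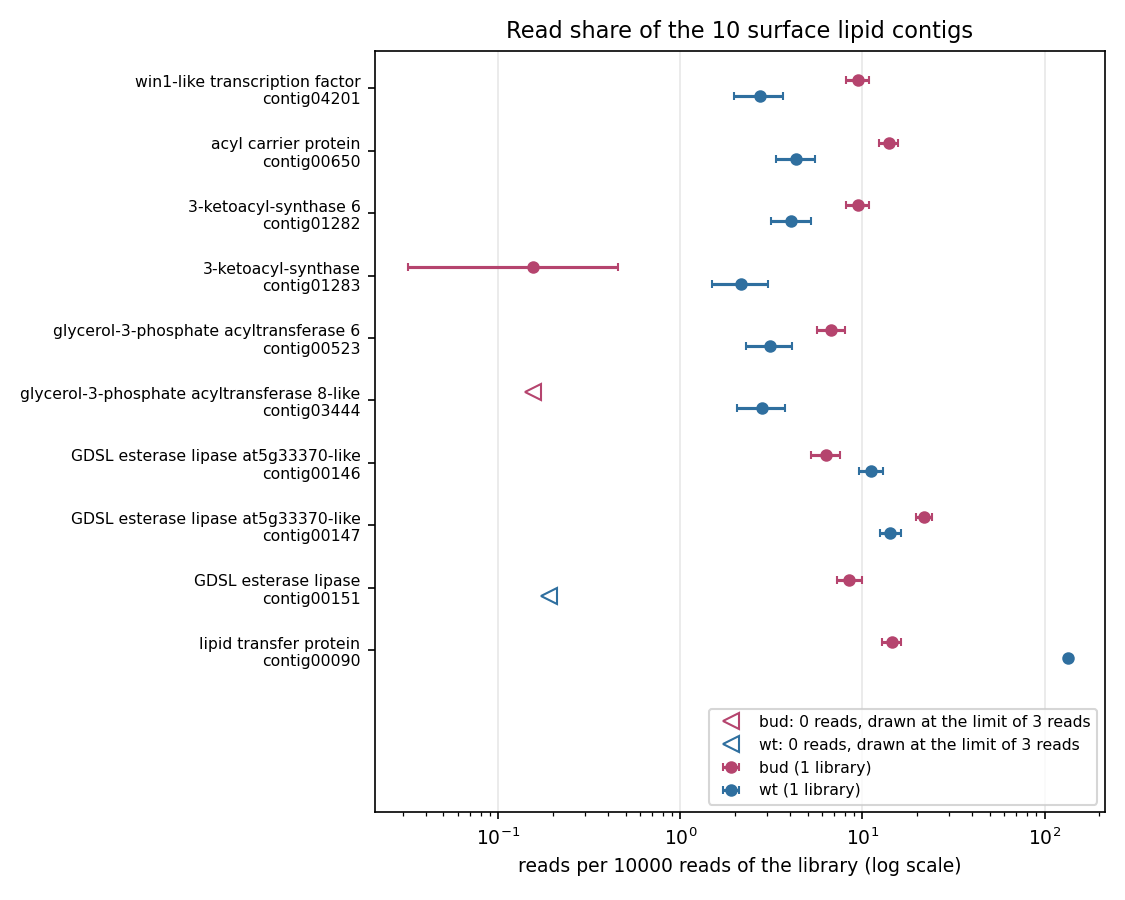
Reads per 10000 reads of the library for each of the 10 contigs in the bud and wt libraries (log scale, bars are exact 95% counting intervals, open triangles mark 0 reads, drawn at the share of 3 reads). Of the 10 contigs, which were listed for their difference, bud lies to the right for 6 and wt for 4. The lipid transfer protein in wt stands farthest right at 135 per 10000.

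Summed over the 10 contigs, 90.7 reads per 10000 came from surface lipid contigs in bud and 179.5 in wt, which is 1.98 times more in wt (1.86 to 2.10). One contig set this direction. The lipid transfer protein contig00090 held 75.1% of the summed reads in wt and 16.0% in bud. Without it the sum was 76.2 per 10000 in bud and 44.6 in wt, 1.71 times more in bud (1.56 to 1.87).

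**Figure D2:**
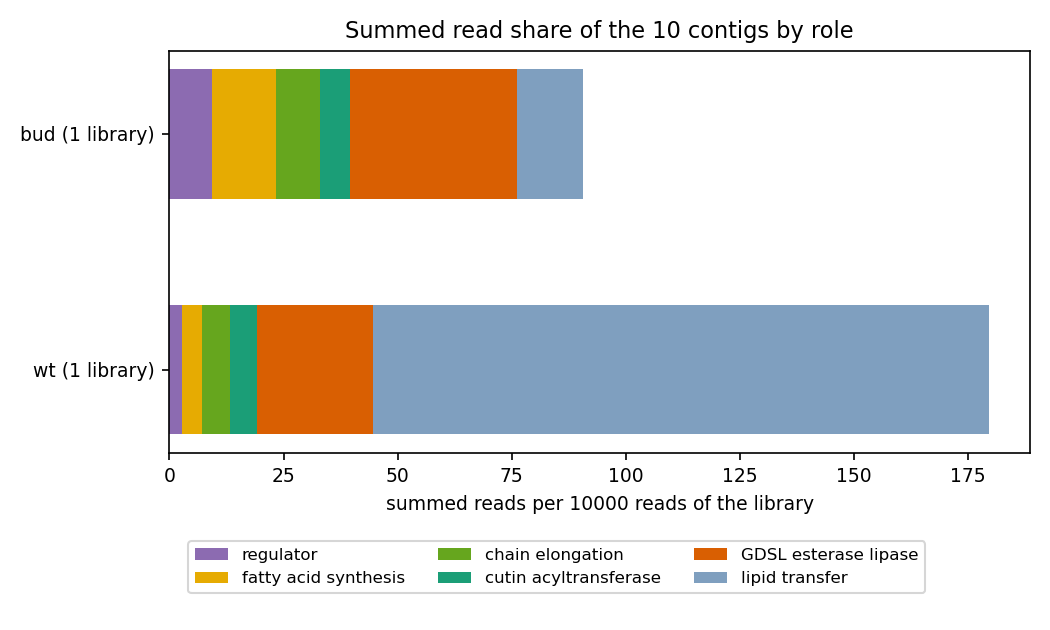
Summed reads per 10000 of the 10 contigs, stacked by role, in the bud and the wt library. The bar of wt is longer at 179.5 against 90.7 because of the lipid transfer segment, while the segments of the other roles together take 76.2 in bud and 44.6 in wt.

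The transcription factor of the group is win1-like. In Arabidopsis, WIN1 (also SHINE1) is an AP2/ERF protein that switches on genes of cutin and wax synthesis in the epidermis. Contig04201 had 182 reads in bud (9.41 per 10000) and 43 in wt (2.73). Its share was 3.44 times higher in bud (2.46 to 4.92). The contigs numbered next to it, contig04200 and contig04202, had 6 and 18 reads in bud and 11 and 11 in wt, so that contig04201 held most reads of the 3.

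The acyl carrier protein, which holds the growing chain during fatty acid synthesis in the plastid, had 270 reads in bud (13.96 per 10000) and 68 in wt (4.32) in contig00650. The share was 3.23 times higher in bud (2.47 to 4.28). This is a step shared by all fatty acids of the cell and not only by those of the cuticle. Contig00652, which has no annotation here, had nearly the same numbers of 263 and 66 reads for bud and wt and a share 3.24 times higher in bud. Whether the same reads were counted on both contigs was not tested. The intervening contig00651 had 0 and 2 reads, and contig00649 had 0 reads in bud and 17 in wt. The deposited reads per 10000 of contig00650 in bud, 13.1, are below the 13.96 computed from its reads, and the other 9 contigs were within 0.06.

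3-Ketoacyl-synthases join malonyl units to long acyl chains and set the chain length of wax. 3-Ketoacyl-synthase 6 of Arabidopsis (CUT1, CER6) makes the very long chains of stem wax and of the pollen coat. Contig01282, annotated as this enzyme, had 182 reads in bud (9.41 per 10000) and 64 in wt (4.07), 2.31 times more in bud (1.73 to 3.12). The next contig number went the other way. Contig01283, annotated only as a 3-ketoacyl-synthase, had 3 reads in bud (0.155 per 10000) and 34 in wt (2.16), 13.9 times more in wt with a counting interval of 4.38 to 71.0. Added up, the pair had 185 and 98 reads and a share 1.53 times higher in bud (1.19 to 1.98). Whether these contigs are parts of 1 transcript, alleles or separate genes was not tested. Such opposite neighbours were not particular to this pair: of 11888 pairs of consecutive contig numbers, both contigs were called in 68 pairs, and in 30 of these the directions were opposite. The contigs on either side were contig01281 (29 reads of bud, 20 of wt) and contig01284 (9 and 2).

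Some glycerol-3-phosphate acyltransferases of plants attach oxidised fatty acids to glycerol and so make the building blocks of cutin. In Arabidopsis, GPAT6 serves the cutin of sepals and petals and is also needed in the tapetum of the anther, and GPAT8 acts with GPAT4 in the cutin of stems and leaves. The 2 contigs of this family went in opposite directions. Contig00523 (glycerol-3-phosphate acyltransferase 6) had 130 reads in bud (6.72 per 10000) and 49 in wt (3.12), 2.16 times more in bud (1.54 to 3.06). Contig03444 (glycerol-3-phosphate acyltransferase 8-like) had no read among those of bud (0) but 44 in wt (2.80 per 10000). With 3 reads in place of 0 this is 18.0-fold more in wt, with an exact lower limit of 14.1. Together they had 6.72 and 5.91 reads per 10000, a ratio of 1.14 whose interval of 0.864 to 1.499 includes equal shares. The contig numbered before contig03444, contig03443, had 284 reads in bud and 245 in wt. No annotation is given for contig03443, and whether it belongs to the same gene was not tested. Summed with contig03443 and contig03445, contig03444 had 305 reads in bud and 307 in wt, 1.24 times more in wt (1.05 to 1.46). Contig00522 and contig00524, on either side of contig00523, had 26 and 87 reads in bud and 6 and 67 in wt.

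GDSL esterase lipases are a large family of secreted hydrolases, some of which act as cutin synthases outside the cell, and the Arabidopsis gene at5g33370 is known as such a cutin synthase. Contig00146 and contig00147 are both annotated as at5g33370-like and stand next to each other. Contig00147 had 421 reads in bud (21.8 per 10000) and 224 in wt (14.2), 1.53 times more in bud (1.30 to 1.80). Contig00146 had 122 reads in bud (6.31 per 10000) and 176 in wt (11.2), 1.77 times more in wt (1.40 to 2.25). Their sum of 543 reads in bud and 400 in wt gave a ratio of 1.10, with an interval of 0.968 to 1.26 that includes equal shares. The third contig of the family, contig00151, was read 164 times in bud (8.48 per 10000) and 0 times in wt. With 3 reads in place of 0, its share in bud was 44.4-fold that in wt, with an exact lower limit of 35.7.

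These 3 contigs belong to a run of 6 well covered contig numbers. Between them, and without annotation here, contig00148 had 233 reads in bud and 99 in wt, contig00149 had 128 and 58, and contig00150 had 119 and 80. All of the run from contig00147 to contig00151 had higher shares in bud, and only contig00146 was higher in wt. For contig00150 the ratio of 1.21 had an interval of 0.903 to 1.63, which includes equal shares. The run as a whole held 1187 reads of bud and 637 of wt and was 1.51 times higher in bud (1.37 to 1.67). On either side of it the reads were few, with 0 and 7 in contig00145 and 9 and 4 in contig00152.

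Lipid transfer proteins are small secreted proteins with a pocket that binds lipids, found in quantity in the walls of the epidermis and, in some families, in the tapetum. Contig00090 had 281 reads in bud (14.5 per 10000) and 2121 in wt (134.9), 9.29 times more in wt (8.20 to 10.6). The contigs that follow it in number have no annotation here and had read numbers of the same order. Contig00091 was 6.85 times higher in wt (203 and 1130 reads in bud and wt), contig00092 was 6.26 times higher (559 and 2846) and contig00093 was 5.94 times higher (587 and 2836). Contig00095 was opposite, with 1143 reads from bud and 0 from wt. With 3 reads in place of 0 its share was 310-fold higher in bud, with an exact lower limit of 251. Together these 5 contigs took 1.43% of all reads in bud and 5.68% in wt, 3.96 times more in wt (3.80 to 4.14). Before contig00090 the reads were few, with 3 and 2 in contig00089. Whether the run belongs to 1 transcript or gene family, and whether reads were counted on several of its contigs, was not tested.

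**Figure D3:**
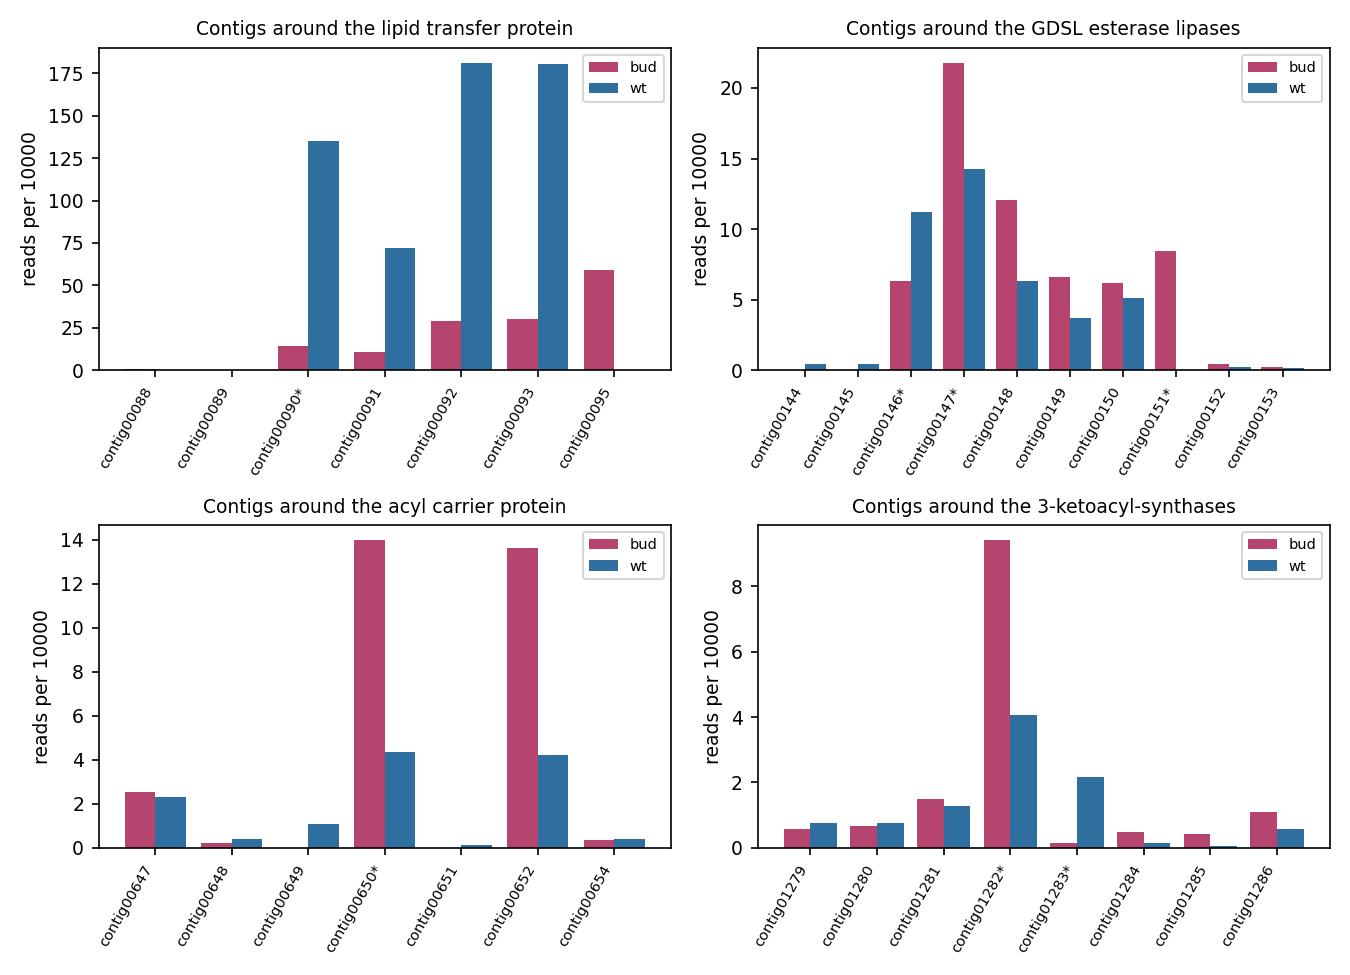
Reads per 10000 in bud and wt of the contigs numbered around the lipid transfer protein, the GDSL esterase lipases, the acyl carrier protein and the 3-ketoacyl-synthases (asterisks mark the contigs of the surface lipid group, y axes differ). Around contig00090 the bars of wt stand above those of bud for 4 contigs and contig00095 has reads from bud alone, contig00146 is higher in wt and contig00147 to contig00151 are higher in bud, contig00650 and contig00652 look alike, and contig01282 and contig01283 are opposite.

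The position of the group among all contigs is shown by the plot of bud against wt shares. Contig00151 and contig03444 lie on the axes of 0 reads, where contigs with few reads are most frequent, but they had 164 and 44 reads in the library in which they were found. Contig00523 and contig01282 lie close to the 2-fold line, and contig00146 and contig00147 lie inside it on opposite sides of the line of equal shares.

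**Figure D4:**
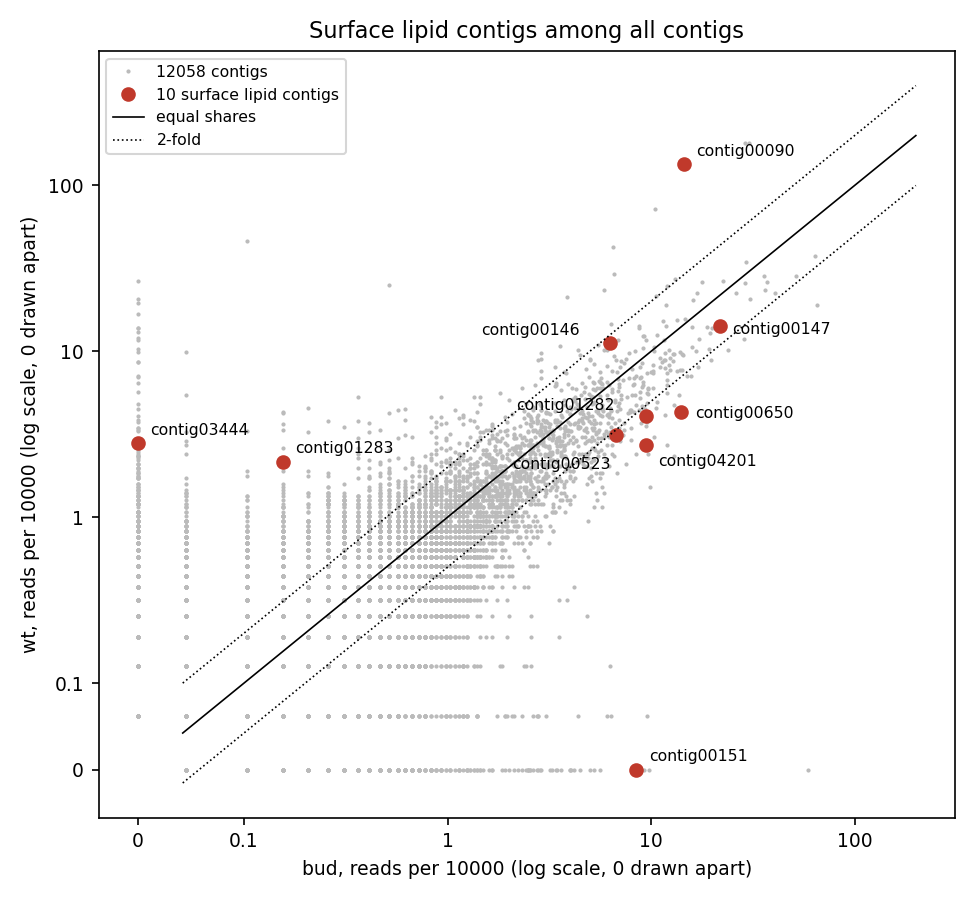
Reads per 10000 in bud (x axis) and wt (y axis) of the 12058 contigs in grey and of the 10 surface lipid contigs in red, on log scales with 0 drawn apart. Contig00090 lies far above the line of equal shares, contig01283 and contig03444 lie to the left at 0.155 and 0 in bud, and contig00151 lies at 0 in wt. Contig04201, contig00650, contig01282 and contig00523 lie below the lower 2-fold line. Contig00146 and contig00147 lie between the 2-fold lines, with contig00146 above the line of equal shares.

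Other contigs of the study's list come from families that hold surface lipid enzymes. Of 5 such contigs, 3 were at least 2-fold higher in bud and 1 in wt, beside 21.0% and 22.3% of all contigs, and calls were made for 2 in favour of bud and 1 in favour of wt, beside 1.41% and 1.48%. Of the GDSL esterase lipases, contig03137 (at3g48460-like) had 182 reads in bud and 56 in wt, 2.64 times more in bud (1.95 to 3.63), and contig03612 (at5g45910-like) had 62 and 14, 3.60 times more in bud (1.99 to 6.96). A second lipid transfer protein, contig03191, had 133 reads in bud and 184 in wt, 1.70 times more in wt (1.35 to 2.14), so that both lipid transfer proteins had the higher share in wt, by very different amounts. A sterol desaturase-like contig (contig01509), of a superfamily that in Arabidopsis includes the wax enzymes CER1 and CER3, had 52 and 99 reads, 2.34 times more in wt (1.66 to 3.34). An HXXXD-type acyltransferase (contig08677), of the family that in Arabidopsis holds CER2 and DCR, was found with 27 reads of bud and 0 of wt. With 3 reads in place of 0 this is 7.32-fold more in bud, with an exact lower limit of 5.55. With these families counted, 4 of the 5 GDSL contigs of the list had a higher share in bud. Of all contigs in the 2 sequences of that list, this held for 109 of 114 and 1 of 81. Whether contig00146, contig00147 and contig00151 are separate genes was not tested. These contigs too were listed for their difference, and family names do not show that the proteins act on surface lipids.

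Stamens were present only in wt flowers, and some of the enzymes above also serve the tapetum and pollen coat. Of 3 contigs of a stamen list, 2 were at least 2-fold higher in bud and 1 in wt, beside 21.0% and 22.3% of all contigs. The B class gene CvPI (contig07420), which sets petal and stamen identity, was found with 0 reads of bud and 20 of wt. With 3 reads in place of 0 this is 8.20-fold more in wt, with an exact lower limit of 6.07. Contig01586, a pollen-specific protein c13-like, was read 67 and 0 times, and a tap1 precursor-like protein (contig03435), named after a tapetum protein, had 381 and 140. The list summed to 23.2 reads per 10000 in bud and 10.2 in wt, of which contig03435 alone gave 19.7 and 8.90. The names of contig01586 and contig03435 have no second source and are as uncertain as those above. These contigs too were listed for their difference, so nothing is read from the counts or the sum. The part of stamen tissue in the surface lipid reads was not tested.

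With 6 other scalings of the libraries, the 6 contigs with more in bud and the 4 with more in wt all kept their direction. The scalings moved every log2 ratio of bud over wt down by the same amount, by 0.02 to 0.05 with TMM library sizes, DESeq2 size factors and totals without the 10 largest contigs, by 0.15 with the assembled reads of the study as totals, by 0.32 with its reads in contigs and by 0.34 when the libraries were set equal on 4 reference contigs of the study. The reference contigs had only 75 reads in bud and 48 in wt. With the last 2 scalings 3 contigs were at least 2-fold higher in bud in place of 5, because contig01282 and contig00523 came below 2-fold, while contig00146 became more than 2-fold higher in wt, the fourth contig at that size. The spread between plants was not measured. If plants were taken to vary with a coefficient of 0.2 (SD over mean), edgeR's exact test would call 1 of the 10 contigs for bud and 2 for wt, beside 1.19% of all contigs in either direction, and with 0.4 it would call 1 for bud, beside 0.252%. Both coefficients are assumptions and the contigs were selected on this difference, so nothing is read from these counts.

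**Figure D5:**
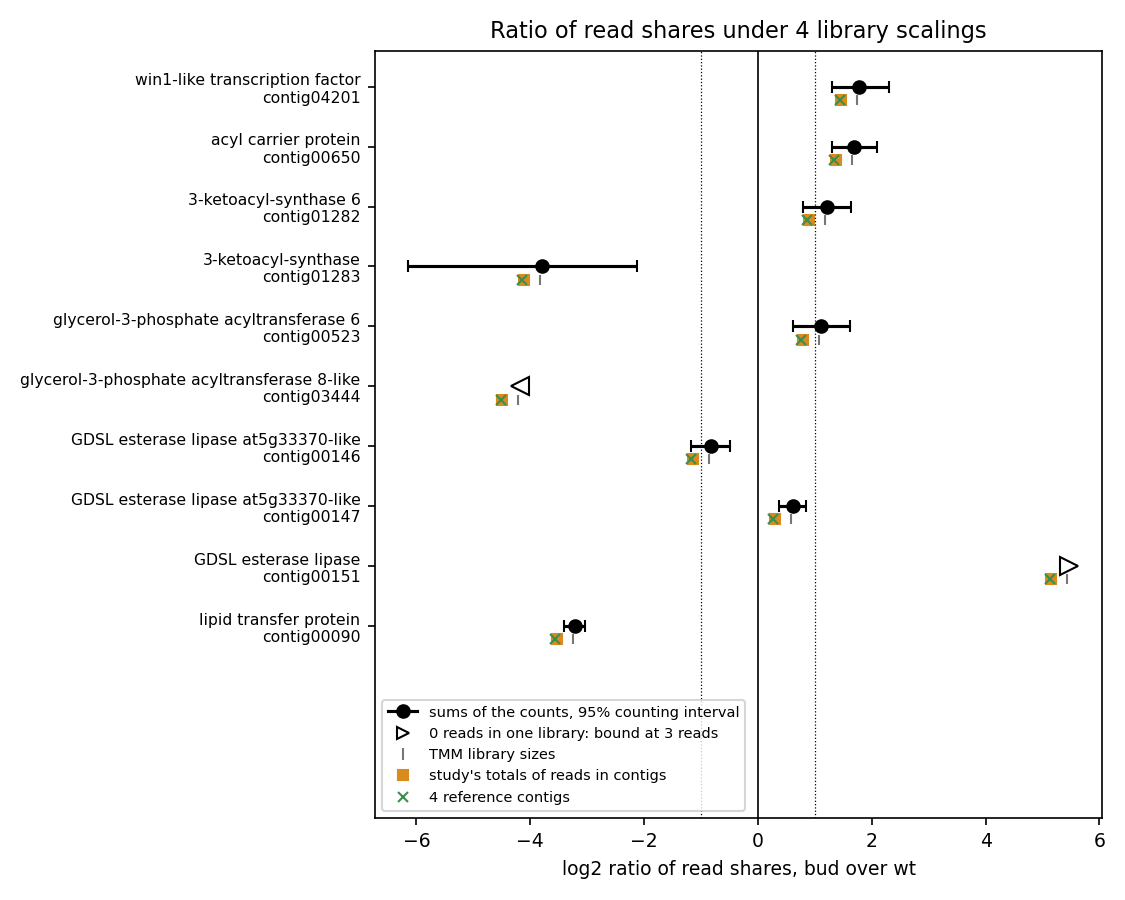
Log2 ratio of the read shares of bud over wt for the 10 contigs, with library totals from the sums of the counts (black, exact 95% counting intervals, triangles put 3 reads in place of 0) and with 3 other scalings below each. The other scalings shift all contigs towards wt by 0.04 to 0.34, and none crosses 0.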

How the data were processed

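The authors pyrosequenced both cDNA libraries, used SeqClean to take out rRNA and sequences of plastids, mitochondria and endophytes, built contigs from all reads in GS DeNovoAssembler (Newbler) 2.5.3 and counted where the reads of either library mapped. The deposited counts are raw reads per contig. The deposited signal values are the authors' reads per 10000 from IDEG6, used only in a check, in which they were off by over 0.06 for 438 contigs. A column of the authors' p-values was not used. The table has 12061 entries, of which 3 repeat others. The 10 contigs, the neighbour windows, the related families, the stamen list and the reference contigs were chosen with earlier results of these data known. All 10 contigs, their neighbours by number and these lists are named. The runs of contigs with many reads were singled out after their values were seen.

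Intervals of shares and ratios are exact (Clopper-Pearson, 95%). In ratios, 3 reads stood in for a count of 0. PCR copies are not independent molecules. Calls come from the Audic-Claverie probability of the wt reads given the bud reads, summed to both tails and Bonferroni-corrected over the 11900 contigs, and were tested on simulated data. The main alternatives were other library totals, tests, read minimums, sums with neighbours and an assumed spread between plants. Python 3.11.15 with scipy 1.17.1, R 4.3.3, edgeR 4.0.16 and DESeq2 1.42.0 were used. The table of RefSeq locus tags was not used, because nothing links it to contig numbers, and contig sequences were not analysed here.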

Additional observations from a re-analysis of the deposited data

How the results depend on the processing

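No paired analysis was possible because there is 1 library per flower type. The summed share of the 10 contigs, bud over wt, was 0.505 and without contig00090 1.71. These ratios were 0.457 and 1.54 with the assembled reads of the study as totals, 0.406 and 1.37 with its reads in contigs, and 0.398 and 1.34 on the reference contigs. With the last 2 scalings 3 contigs were called higher in bud and 3 were at least 2-fold higher in bud, and contig00147 had a ratio of 1.23 and 1.20 and contig00090 of 0.0865 and 0.0848. Summed with the contigs numbered 1 below and 1 above, 3 contigs were called and 3 at least 2-fold higher in bud, and 1 each in wt. The sum without contig00090 was then 1.46, and single ratios were 1.47 for contig01282, 0.808 for contig03444, 1.26 for contig00147 and 2.83 for contig00151, while contig01283 at 1.58 and contig00146 at 1.08 turned to bud. Neighbours can be other genes. With the runs of contig00090, contig00146 and contig00650 counted whole, chosen after seeing the data, the sum was 0.408. Without the run of contig00090 it was 1.79. The libraries were also exchanged, as if the heading of the study's list applied to the columns counted here, which was not shown. Then 3 contigs were called and 3 at least 2-fold higher in bud and 5 each in wt, with sums of 1.98 and 0.586. With an assumed coefficient of variation of 0.2, the calls were 1 for bud and 2 for wt, and with 0.4 they were 1 and 0, from which nothing is read. Of the alternatives for counts and sums, 50 stayed within 1.5 times the count or within the interval of the ratio. Of the others, 24 moved further and 2 turned the direction, both with the libraries exchanged. Depth limits contig01283 and contig03444 most, with 37 and 44 reads in all.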
